A study of Homo sapiens with 6 samples.

Results

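Complement is a set of blood proteins, made mostly by hepatocytes, that mark microbes and damaged cells for removal. The genes described here were chosen by name as components of the cascade, its lectin arm, its regulators and its receptors, and the list held 35 genes. Of these, 30 had a row among the 16720 named rows of the count table, and C7, C9, CFHR2, CFHR4 and C3AR1 were not analysed here. The cells were Hep3B, an established line from a human hepatocellular carcinoma (HCC). The control group (sgControl) had genotype WT and 3 libraries, and the knockout group (sgRFX6) had an RFX6 knockout and 3 libraries. Per the methods of the study, guides were delivered with the lentiviral vector lentiCRISPRv2, which also carries Cas9, cells were selected with puromycin and clones grown from single cells were expanded, so both groups may represent few clones. The table names guide 3 for the knockout columns and Cas for the control columns. The labels do not say whether the 3 libraries of a group came from separate cultures, so p-values measure only the spread between these libraries, which may be technical.

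Complement is started by 3 routes. In the classical route the proteases C1r and C1s of the C1 complex cleave C4 and C2, in the lectin route mannose-binding lectin and its proteases do the same, and in the alternative route C3, factor B and factor D keep up a loop that amplifies C3 cleavage. All routes lead to cleavage of C3 and C5 and to a pore built from C5b, C6, C7, C8 and C9. Host cells are spared by soluble inhibitors, such as C4b-binding protein, factor I, clusterin and vitronectin, and by the membrane proteins CD46, CD55 and CD59. In hepatocytes, interleukin-6, interleukin-1 and interferons raise many complement genes during the acute-phase response.

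The libraries held between 16730374 and 25070770 counts. One library in each group stood apart. The chi-square per degree of freedom between the counts of 2 libraries was 16.25 for sgControl libraries 1 and 3 but 85.35 and 68.66 for library 2 against them, and 17.91 for sgRFX6 libraries 1 and 2 but 94.32 and 117.1 for library 3 against them. In sgControl library 2, genes with GC-rich transcripts were higher than in the mean of the other sgControl libraries (Spearman's rho of the ratio with GC content over 12186 genes, 0.418), and in sgRFX6 library 3 they were lower than in its partners (rho, -0.864). Other libraries had GC trends as well. As deviations from the mean of their group, sgControl libraries 1 to 3 had a rho of -0.577, 0.415 and 0.0511 with GC content. By the same measure sgRFX6 libraries 1 to 3 had 0.656, 0.736 and -0.864. Results that rest on sgControl library 2 or sgRFX6 library 3 are given with and without that library. RFX6, the targeted gene, had 117, 144 and 170 counts in sgControl libraries 1 to 3 and 69, 59 and 77 in sgRFX6 libraries 1 to 3, a log2 fold change of -0.82 (SE 0.26) with an adjusted p of 0.142 by edgeR. CPM is the number of counts per 1000000 counts of a library, with library sizes scaled by edgeR's TMM factors, and 3 counts correspond to between 0.122 and 0.189 CPM. All 13 hepatocyte markers listed were tested, with summed levels of 308 to 348 CPM in sgControl and 244 to 267 CPM in sgRFX6. In sgControl, HNF4A (151 CPM) and APOB (66.6 CPM) had the highest means when exon length was left aside. Per kilobase of exon in sgControl, AMBP was highest at 26.3 CPM. HNF4A, FGB (13.4) and ALB (8.92) followed it, and APOB was at 4.49 CPM per kilobase in sgControl. AFP, APOA1, APOA2, TTR and AHSG had means of 0.482 to 2.03 CPM there. Among the 13, AFP and AHSG rose and FGB fell, where 3.74% of all tested genes were called. Of the markers of other liver cells, 1 endothelial, 6 stellate or fibroblast and 4 cholangiocyte genes were tested. The 6 genes of the cholangiocyte list summed to 607 to 976 CPM in sgControl and 416 to 758 CPM in sgRFX6. KRT19 led them with a mean of 736 CPM in sgControl. Of the stellate genes 3 (COL1A1, COL1A2 and COL3A1) fell, beside 1.81% of all tested genes, while the rest of these other markers were not called.

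Across the cascade, 1 complement gene passed the test. C4BPA, which encodes the alpha chain of C4b-binding protein, rose 2.45-fold in sgRFX6. C8G, the gamma chain of the C8 pore component, was 3.52-fold higher in sgRFX6 but missed the threshold with all 6 libraries. C3, C5 and the membrane regulators CD46 and CD55 did not pass, with edgeR adjusted p-values between 0.527 and 0.941. Of the 30 genes with a row, 20 passed the filter on low counts and were tested, and the other 10 were too low to test. An adjusted p under 0.05 by edgeR's quasi-likelihood test was the threshold, and 480 of 12839 tested genes (3.74%) passed it. Among the 20 complement genes 1 was called higher, beside 1.92% of all tested genes, and 0 were called lower, beside 1.81%. DESeq2 and limma-voom with sample quality weights also called 0 of the 20 lower, beside 404 and 1669 of 12839 tested genes. Before adjustment, 4 of the 20 (C4BPA, C8G, CD59 and CLU), all higher, had p under 0.05 by edgeR. Over all tested genes the share in either direction was 15.6%. The 3 libraries of one group lay beyond the 3 of the other for 5 of the 20 (C4BPA, C8G, CD59 and CLU higher, C4A lower), beside 23.1% of all tested genes. A log2 fold change of at least 1 in either direction was seen in 3 of the 20, beside 8.28% of all. Fold changes ranged from -1.30 to 1.81 on the log2 scale, 8 were positive and 12 negative, and their median was -0.10 beside 0.02 over all tested genes. Without sgControl library 2 the median of the complement genes was 0.36 and that of all genes 0.02. Differences in bulk RNA cannot tell fewer expressing cells from less RNA per cell.

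**Figure D1:**
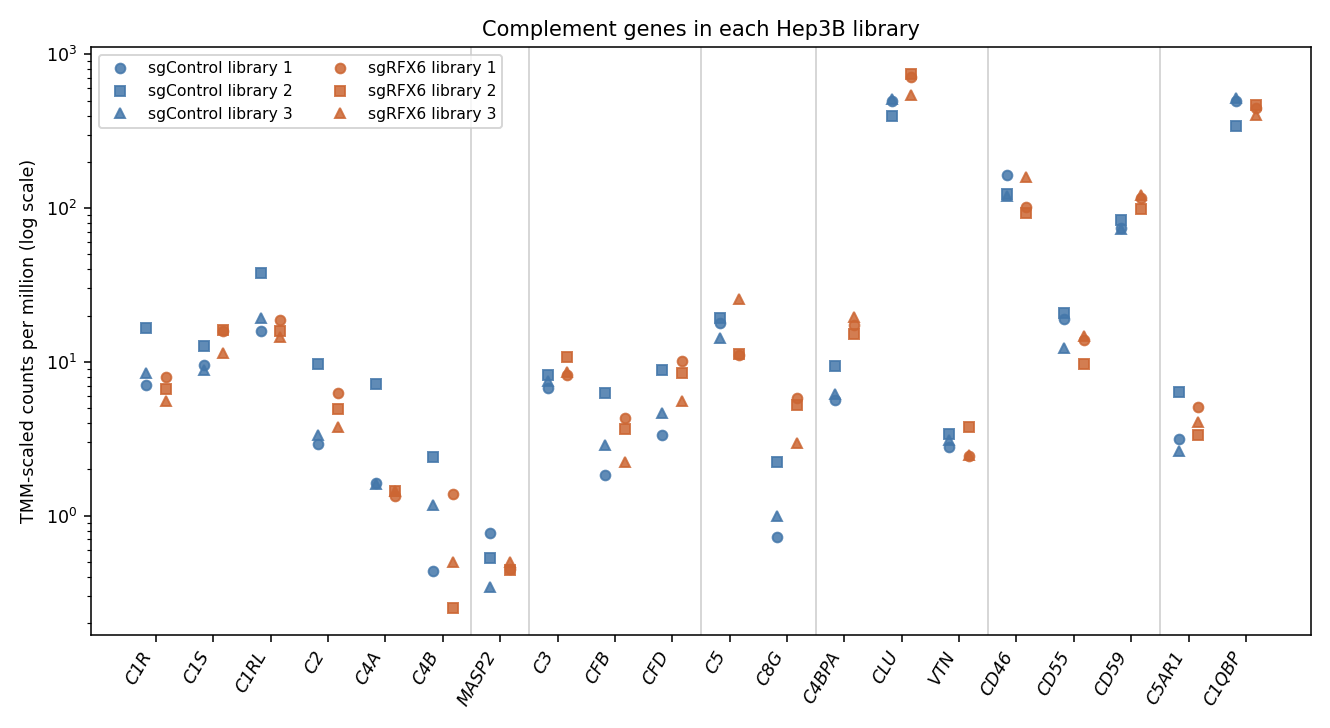
TMM-scaled CPM (log axis) of the 20 tested complement genes in each library, sgControl in blue and sgRFX6 in orange, with a symbol for each library number and grey lines between functional groups from the classical components on the left to the receptors on the right. The 3 sgRFX6 libraries lie above all sgControl libraries for C8G, C4BPA, CLU and CD59, and the square of sgControl library 2 stands above the other control symbols for C1R, C1RL, C2, C4A, C4B, CFB, CFD, C8G and C5AR1.

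C4BPA lies at chr1:207104262-207144972 on the plus strand of GRCh38. Its product assembles into C4b-binding protein, which serves factor I as a cofactor in the cleavage of C4b. C4BPA stood at 5.64, 9.44 and 6.17 CPM in sgControl libraries 1 to 3 (mean 7.08, SD 2.06) and at 17.3, 15.3 and 19.5 CPM in sgRFX6 libraries 1 to 3 (mean 17.3, SD 2.11). Every sgRFX6 library lay above every sgControl library. This was a log2 fold change of 1.29 (SE 0.27) with an edgeR adjusted p of 0.0346. The 2-sided exact permutation test over the libraries gave p = 0.1, the smallest that 3 against 3 libraries allow. Over its 50 closest tested neighbours on the chromosome, the median log2 fold change was -0.10. The call was kept without sgControl library 2 (adjusted p = 0.0241) and without sgRFX6 library 3 (0.0478) but was lost without sgControl library 1 (0.132), sgControl library 3 (0.1805), sgRFX6 library 1 (0.118) or sgRFX6 library 2 (0.0673), all by edgeR.

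The 250 bases before the RefSeq start of C4BPA, chr1:207103983-207104232 of GRCh38.p14 on the plus strand, are shown because C4BPA was the called gene. Capitals mark the half-site GTTAAT of the hepatocyte factor HNF1, 50 to 45 bases before the start.
C4BPA promoter: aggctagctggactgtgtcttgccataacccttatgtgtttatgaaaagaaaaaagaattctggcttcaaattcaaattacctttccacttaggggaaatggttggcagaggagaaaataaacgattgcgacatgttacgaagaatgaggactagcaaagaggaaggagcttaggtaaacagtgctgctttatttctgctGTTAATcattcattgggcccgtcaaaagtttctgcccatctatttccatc
GTTAAT, searched on both strands over 250 bases before to 50 after each start, was found in 2 of the 25 complement genes with a RefSeq promoter (C4BPA and CFI), 8% beside 6.89% of all 27305 promoters. The half-site GTTGCC of RFX factors was found in 4 of the 25 (C5, CD55, MASP2 and VTN), 16% beside 12.2% of all promoters, and not in this stretch of C4BPA. The letters TTCNNNGAA of STAT factors were in 28% of the complement promoters beside 7.88% of all, and TTGCNNAA of C/EBP factors were in 20% beside 10.6%. The NF-kB motif was in 52% of them beside 58% of all, and the interferon-stimulated element was in CFB alone, 4% beside 3.65%. These matches describe letters in a window and no binding was measured here.

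C4BPB, the neighbouring gene for the beta chain, starts and ends within the same cluster, with 4268 bases between it and C4BPA. Its 4, 15 and 2 counts in the sgControl libraries and 0, 4 and 4 in the sgRFX6 libraries were too few to test. The chain genes differed in level, since C4BPA stood at 3.16 CPM per kilobase of exon in sgControl and C4BPB at 0.242, or at 2.63 and 0.114 over sgControl libraries 1 and 3 alone. CFI encodes factor I, the protease that C4b-binding protein assists, and counted 9, 16 and 10 in the sgControl libraries and 2, 6 and 4 in the sgRFX6 libraries. Its sgRFX6 libraries lay below its sgControl libraries, at counts too low for the filter.

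CLU encodes clusterin, an abundant chaperone that also blocks the terminal pore in plasma. It stood at 495, 396 and 512 CPM in sgControl and at 707, 744 and 544 CPM in sgRFX6, with no overlap between groups. At a log2 fold change of 0.51 (SE 0.19) and an edgeR adjusted p of 0.235 it missed the threshold. With the GC trends of the libraries removed, the log2 fold change was 0.54 with an adjusted p of 0.0504. Without sgRFX6 library 3 it was 0.64 (adjusted p 0.0543), and without sgControl library 2, the lowest control, it was 0.40 (adjusted p 0.424), all by edgeR. VTN, which encodes vitronectin, an adhesion protein that binds the C5b-7 complex, stood at 2.79, 3.40 and 3.11 CPM in sgControl and at 2.43, 3.77 and 2.50 CPM in sgRFX6. Its groups overlapped, and its log2 fold change of -0.10 (SE 0.31) was smaller than its error. Among the genes of the CFHR family, CFHR3 had between 2 and 7 counts in each library and CFHR5 at most 1, and neither was tested.

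The terminal components were mostly scarce. C8G, at chr9:136945185-136946975 of GRCh38, encodes a small subunit of the lipocalin family that is bound to C8 alpha. It stood at 0.723, 2.23 and 0.993 CPM in sgControl, from 15, 55 and 23 counts, and at 5.86, 5.22 and 2.95 CPM in sgRFX6, from 118, 83 and 65 counts. Every sgRFX6 library lay above every sgControl library, with sgControl library 2 the nearest to them. Their difference was 1.81 on the log2 scale (SE 0.48) with an edgeR adjusted p of 0.0816. Without sgControl library 2 the change was 2.43 and the call was reached (adjusted p = 0.0331), as it was with DESeq2 on all 6 libraries (0.00982) and with GC trends removed in edgeR (0.0118). These fits called 3.05%, 6.97% and 12.6% of all genes they tested. By edgeR, C8G missed the threshold without sgRFX6 library 3, its lowest sgRFX6 library (log2 fold change 2.06, adjusted p 0.0508). It also missed without sgControl library 1 (adjusted p 0.197), sgControl library 3 (0.2665), sgRFX6 library 1 (0.2535) or sgRFX6 library 2 (0.190). The partner chains C8A and C8B, which lie side by side on chromosome 1, had at most 1 count in any library. The chains of C8 thus stood at very different levels in these cells.

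C5, the source of the inflammatory peptide C5a and of C5b, which starts the pore, stood at 17.8, 19.4 and 14.3 CPM in sgControl and at 11.03, 11.3 and 25.6 CPM in sgRFX6. Library 3 of sgRFX6 lay above and the other two lay below all sgControl libraries. C5 had a log2 fold change of -0.11 (SE 0.35, edgeR adjusted p 0.941) with all libraries and -0.62 (adjusted p 0.1385) without sgRFX6 library 3. C6 had 5 to 9 counts per sgControl library and 5, 8 and 24 in the sgRFX6 libraries, again with library 3 the highest.

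**Figure D2:**
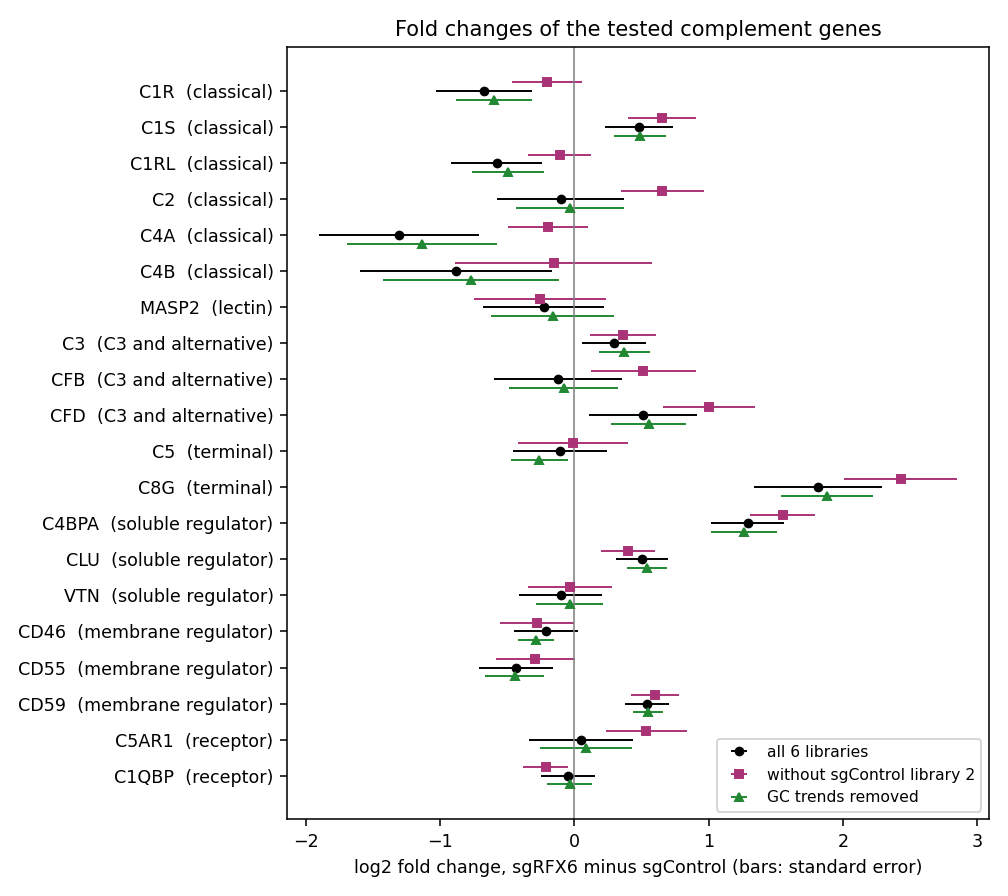
Log2 fold change of sgRFX6 over sgControl for each tested complement gene, with bars of 1 standard error, for all 6 libraries (black circles), without sgControl library 2 (purple squares) and with GC trends removed (green triangles). C8G and C4BPA lie farthest to the right in all 3 fits, while C4A moves from -1.30 to -0.20 without sgControl library 2.

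Of the classical components 6 of 6 genes were tested. By edgeR 0 passed and 0 had an unadjusted p under 0.05, beside 3.74% and 15.6% of all tested genes. DESeq2 called 0 of the 6, beside 6.97% of all. Limma-voom with sample quality weights called 2 of them higher, C1S and C2, and 18.1% of all tested genes higher. Beside this, sgControl library 2 was high for most of the group. C4A and C4B encode the 2 forms of C4, which is split to C4b and binds covalently to targets. C4A stood at 1.64, 7.21 and 1.60 CPM in sgControl and at 1.34, 1.45 and 1.45 CPM in sgRFX6. All sgRFX6 libraries lay below all sgControl libraries, but sgControl libraries 1 and 3 lay close to them and library 2 was 4.46-fold above the mean of its partners. The log2 fold change was -1.30 (SE 0.60, edgeR adjusted p 0.348) with all libraries and -0.20 (adjusted p 0.853) without sgControl library 2. C4B stood at 0.434, 2.39 and 1.17 CPM in sgControl and at 1.39, 0.251 and 0.4997 CPM in sgRFX6, and its groups overlapped. Its log2 fold change was -0.88 (SE 0.71, edgeR adjusted p 0.643), and -0.15 without sgControl library 2.

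How far the C4 genes can be told apart depends on few bases. Their coding sequences in the GENCODE 29 annotation of GRCh38 hold 5232 bases each and differ at 13, and 87.9% of the 100-base windows of C4A occur unchanged in C4B. The stretch that separates the isotypes lies in exon 26 of both genes, at chr6:31996052-31996111 in C4A and chr6:32028790-32028849 in C4B, both on the plus strand, and is shown with its 5 differing bases in capitals.
C4A: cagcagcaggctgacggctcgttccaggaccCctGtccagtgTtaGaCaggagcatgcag
C4B: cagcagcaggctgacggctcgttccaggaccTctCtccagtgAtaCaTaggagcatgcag
Reads outside such stretches fit both genes, and how the counting shared them is not given in the sources used here, so the split between C4A and C4B is uncertain. Their sum was 43, 237 and 64 counts in the sgControl libraries and 55, 27 and 43 in the sgRFX6 libraries, and the groups overlapped.

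C1R and C1S encode the proteases of the C1 complex and C1RL a related protease, and all 3 lie together on chromosome 12 within 121.0 kb. C1S was 9.54, 12.8 and 8.89 CPM in sgControl and 15.9, 16.2 and 11.5 CPM in sgRFX6, a log2 fold change of 0.48 (SE 0.26, edgeR adjusted p 0.426). C1R was 7.04, 16.7 and 8.46 CPM against 7.997, 6.66 and 5.59 CPM, a log2 fold change of -0.67 (SE 0.36, edgeR adjusted p 0.427). Neither partner protease passed. Without sgControl library 2, the highest for C1R, its log2 fold change was -0.20 (SE 0.26, adjusted p 0.820) and that of C1S 0.65 (adjusted p 0.281). C1RL had a log2 fold change of -0.58 (edgeR adjusted p 0.474), and -0.11 (adjusted p 0.908) without that library. C1R and C1RL overlap by 3021 bases on the same strand, so some of their reads may have been shared. C2, the protease of the C3 convertase, had a log2 fold change of -0.10 with all libraries and 0.65 without sgControl library 2, and neither passed.

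C3, the central protein on which all routes meet, was at 6.79, 8.22 and 7.51 CPM in sgControl and 8.20, 10.8 and 8.63 CPM in sgRFX6. Its groups overlapped slightly, and the log2 fold change was 0.29 (SE 0.24, edgeR adjusted p 0.646). CFB, which encodes factor B of the alternative C3 convertase, was at 1.83, 6.32 and 2.89 CPM in sgControl and at 4.32, 3.65 and 2.23 CPM in sgRFX6. Library 2 was again the highest of the controls. The log2 fold change was -0.12 (SE 0.48, edgeR adjusted p 0.950), and it turned to 0.51 (adjusted p 0.642) without that library. CFD encodes factor D, the protease that cleaves factor B, and had a log2 fold change of 0.51 (SE 0.40, edgeR adjusted p 0.624), and 1.004 (adjusted p 0.215) without sgControl library 2. CFP, the gene of properdin, which stabilises the convertase, had 7 to 9 counts per sgControl library and 21, 6 and 11 in the sgRFX6 libraries and was not tested.

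C2, CFB, C4A and C4B lie side by side within 137.6 kb of chromosome 6, and C2 and CFB overlap by 23 bases. Over the 50 closest tested neighbours of each of these 4 genes, the median log2 fold change lay between -0.20 and -0.17. The lectin route was represented at low levels. MASP2, the protease that cleaves C4 and C2 in this route, held 16, 13 and 8 counts across the sgControl libraries and 9, 7 and 11 across those of sgRFX6, a log2 fold change of -0.23 (SE 0.45, edgeR adjusted p 0.888). MBL2, the mannose-binding lectin, held 2, 1 and 4 counts across the sgControl libraries and 4, 5 and 18 across those of sgRFX6, and MASP1 had 4 to 17 counts in each library. Neither was tested. When all genes with a count were fitted without the filter, all 30 complement genes with a row were tested and C4BPA was the 1 called, beside 3.26% of all genes tested.

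The membrane regulators protect the cell that carries them. CD59, which blocks the final assembly of the pore, was at 74.0, 83.6 and 73.1 CPM in sgControl and at 115.9, 98.1 and 121.1 CPM in sgRFX6. The groups did not overlap, and the log2 fold change was 0.54 (SE 0.16, edgeR adjusted p 0.132). CD59 lies at chr11:33703010-33736491 of GRCh38, and its 50 closest tested neighbours had a median of 0.40 on the log2 scale. With that regional median removed, CD59 stood at 0.17 (adjusted p 0.819). Removal of GC trends alone gave 0.55 with a call (adjusted p 0.0181). CD46, the cofactor for cleavage of C3b and C4b by factor I, was at 164, 124 and 120 CPM in sgControl and at 101, 92.3 and 159 CPM in sgRFX6. Library 3 of sgRFX6 lay within the sgControl range and the other two lay below it. CD46 had a log2 fold change of -0.21 (SE 0.24, edgeR adjusted p 0.771), and -0.49 (adjusted p 0.146) without that library. CD55, which speeds the decay of C3 convertases, was at 18.9, 20.7 and 12.4 CPM in sgControl and at 13.9, 9.74 and 14.8 CPM in sgRFX6, with overlap, and its log2 fold change was -0.44 (SE 0.28, edgeR adjusted p 0.527). CD46 and CD55 lie on chromosome 1 in the same cluster of 706.7 kb as C4BPA and C4BPB, and the called gene C4BPA was higher in sgRFX6 while the estimates for CD46 and CD55 were negative. The median over the closest tested neighbours was -0.0033 for CD46 and -0.02 for CD55 on the log2 scale.

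Of the receptors, C5AR1, the receptor of C5a, was at 3.13, 6.36 and 2.63 CPM in sgControl and at 5.12, 3.33 and 4.09 CPM in sgRFX6, with a log2 fold change of 0.05 (SE 0.39, edgeR adjusted p 0.976), and 0.54 (adjusted p 0.489) without sgControl library 2. C1QBP encodes a mainly mitochondrial protein that can bind the globular heads of C1q. It ranged from 344 to 521 CPM in sgControl and from 401 to 470 CPM in sgRFX6, a log2 fold change of -0.05 (SE 0.20, edgeR adjusted p 0.954).

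Levels of the complement genes spanned a wide range in these cells. Per kilobase of exon, C1QBP led in sgControl with 366 CPM, followed by CLU with 120, CD46 with 40.4 and CD59 with 9.36. The RNAs of CD46, CD59 and CLU thus stood above those of the cascade components. C1RL (6.26), CFD (4.61), the membrane regulator CD55 (4.35), C1R (3.85), C4BPA (3.16), C5 (3.15), C1S (2.83), C3 (1.43) and C2 (1.36) followed, all in CPM per kilobase. C4A had 0.638 and C4B 0.245 CPM per kilobase. Over sgControl libraries 1 and 3 alone, C4A was at 0.296, C4B at 0.147, C2 at 0.807, CFB at 0.825 and C8G at 0.974 CPM per kilobase. In sgRFX6, C4BPA reached 7.73 and C8G 5.31 CPM per kilobase. The order among C8G, VTN, C3, C2 and CFB, all between 1.29 and 1.49 CPM per kilobase in sgControl, is not resolved, since their libraries overlap.

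**Figure D3:**
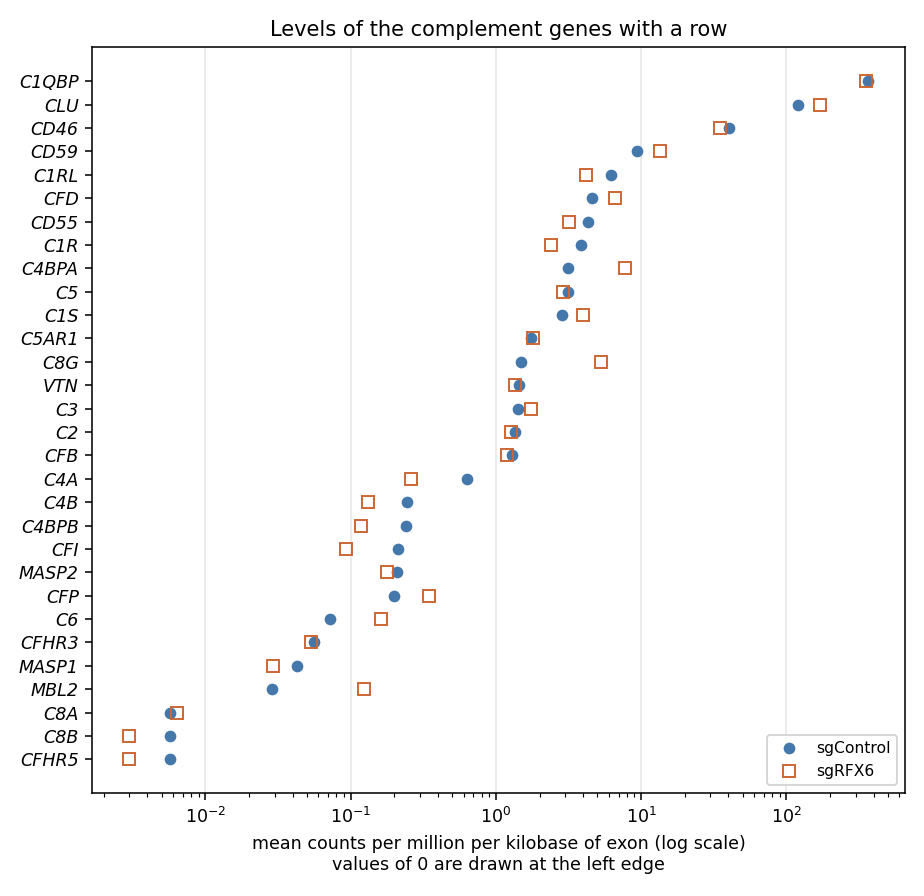
Mean level of each of the 30 complement genes with a row, in CPM per kilobase of exon on a log axis, for sgControl (filled circles) and sgRFX6 (open squares), with values of 0 drawn at the left edge. C1QBP and CLU lead with 366 and 120 in sgControl, and C8A, C8B and CFHR5 lie at the bottom.

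Many complement genes stood high in sgControl library 2. In that library 9 of the 20 tested complement genes (45%) stood at least 2-fold above the mean of sgControl libraries 1 and 3, beside 6.61% of 12836 genes. They were C1R, C1RL, C2, C4A, C4B, CFB, CFD, C8G and C5AR1, between 2.15-fold and 4.46-fold, and none of the 20 stood at 0.5-fold or less. The GC content of these 9 transcripts was 51.1% to 68.0%, and that of the other 11 was 38.2% to 56.5%. Over the 20 genes the ratio and GC content had a Spearman's rho of 0.502, as a description over genes that share these libraries. High ratios in sgControl library 2 were not confined to the 20 genes. Among the other pathway genes described below, ITGAX (2.31-fold), ITGB2 (2.28-fold) and CPN2 (2.91-fold) also reached 2-fold. The rest of those tested, COLEC12, C5AR2, ITGAM and PROS1, did not. Of the hepatocyte markers, ALB (2.25-fold), TTR (2.85-fold) and FGG (3.28-fold) reached 2-fold and the others did not. In sgRFX6 library 3, C5 alone of the 20 stood at least 2-fold above the mean of its partners, beside 10.8% of 12827 genes. With both libraries left out, a choice made after seeing the data, 19 complement genes were tested and edgeR called 8 of them, beside 25.2% of all 12826 genes tested. C1S, C2, CFD, C8G, C4BPA, CLU and CD59 were higher and CD46 lower. The part of GC content or of the single libraries in these values was not tested.

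**Figure D4:**
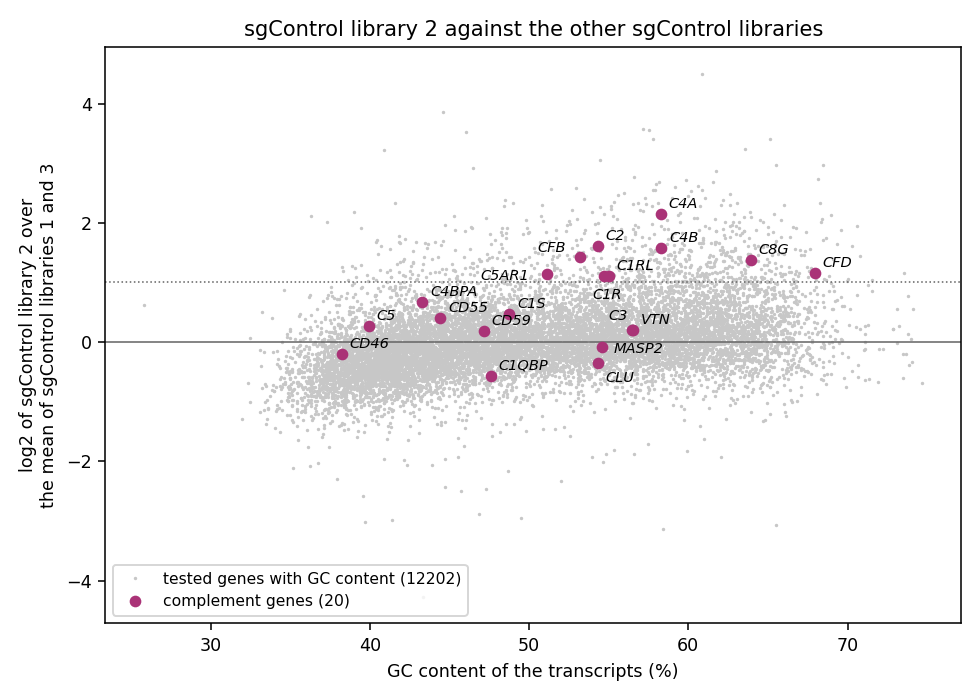
Log2 ratio of sgControl library 2 to the mean of sgControl libraries 1 and 3 against the GC content of the transcripts, for the tested genes (grey) and the 20 tested complement genes (purple). The dotted line marks a 2-fold ratio, and 9 complement genes lie above it, C4A highest at 4.46-fold.

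Other genes of the pathway were taken from a list of recognition molecules, receptors and inactivators outside the 35 genes. It held 30 genes, of which 19 had a row and 7 were tested. ITGAM encodes the alpha chain of complement receptor 3, a receptor of the cleaved C3 fragment iC3b. It was the 1 gene of the 7 that rose in sgRFX6, and 0 fell, beside 1.92% and 1.81% of all tested genes. By edgeR, 1 other gene of the 7 had an unadjusted p under 0.05, beside 15.6% of all tested genes. That gene was ITGB2, the beta chain of the same receptor, whose sgRFX6 libraries all lay below its sgControl libraries, at 1.73, 3.85 and 1.64 CPM in sgControl and 1.44, 1.07 and 1.04 CPM in sgRFX6. ITGB2 had a log2 fold change of -1.02 (SE 0.43, edgeR adjusted p 0.286), was highest in sgControl library 2 and is named after its values were seen. DESeq2 also called 1 gene of the list higher and 0 lower, beside 491 and 404 of 12839 tested genes. ITGAM stood at 2.79, 3.69 and 2.72 CPM in sgControl and at 7.202, 8.92 and 6.04 CPM in sgRFX6, a log2 fold change of 1.26 (SE 0.28, edgeR adjusted p 0.0449). The groups did not overlap. Its 50 closest tested neighbours had a median of 0.39 on the log2 scale, and with the regional median removed the call was lost, as it was in 5 of 6 fits that left out a library. ITGAM is also a gene of myeloid cells. Of 12 macrophage markers, 7 had a row and 5 were tested, with summed levels of 75.0 to 161 CPM in sgControl and 68.7 to 106 CPM in sgRFX6. CD68 made up most of that sum, at 72.1, 156.5 and 87.6 CPM in sgControl. CD163 rose (log2 fold change 2.33), beside 1.92% of all tested genes called higher. LYZ was positive (1.99) and CD68 (-0.29), CD14 (-0.79) and PTPRC (-0.06) negative, and none of these was called. PTPRC, which marks all leukocytes, had 4 to 22 counts in each library, and CSF1R and AIF1 had at most 4.

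The cytokine receptors, transducers and transcription factors that act upstream of complement genes in hepatocytes made a list of 32 genes. Of these 31 were tested, and 2 rose and 0 fell in sgRFX6, beside 1.92% and 1.81% of all tested genes. The median log2 fold change was 0.06, beside 0.02 over all tested genes. DESeq2 called the same numbers higher and lower, where it called 6.97% of all tested genes. Limma-voom with sample quality weights called 10 higher and 1 lower, where it called 31.1% of all tested genes. SOCS3, a feedback inhibitor that interleukin-6 signalling induces through STAT3, had 0.867, 1.74 and 1.90 CPM in sgControl and 6.71, 7.86 and 5.31 CPM in sgRFX6, with a log2 fold change of 2.13 (SE 0.36, edgeR adjusted p 0.0141). Its groups did not overlap. NR1H4, which encodes the bile acid receptor FXR, held 4, 5 and 3 counts across the sgControl libraries and 22, 12 and 22 across those of sgRFX6, with a log2 fold change of 2.41 (SE 0.44, edgeR adjusted p 0.0203). No other gene of the list had an unadjusted p under 0.05 by edgeR, beside 15.6% of all tested genes. The receptors and STAT and NF-kB subunits tested were among those that missed the threshold.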

How the data were processed

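Total RNA of Hep3B cells was isolated with Trizol and sequenced on an Illumina platform. The authors deposited raw counts per gene for 3 sgControl and 3 sgRFX6 libraries in 1 table of 16721 rows. The submitters' processing notes name GRCh38 and hg38, and the aligner, counter, annotation and strand setting are not given in the sources used here. Control columns named for Cas were taken as sgControl, the only control group. The 1 unnamed row, at most 9.17e-05% of any library, was left out.

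Counts were filtered with filterByExpr (minimum count 10, minimum total 15), scaled by TMM and compared with the quasi-likelihood test of edgeR 4.0.16 in R 4.3.3 without covariates, with Benjamini-Hochberg adjustment over 12839 genes. Alternatives used DESeq2 1.42.0, limma 3.58.1, other scaling and filters, GC offsets (loess span 0.3), the median of the 50 nearest tested genes, the replicate number as a block, and libraries left out. Gene positions, exon lengths and GC content came from GENCODE 29 (GRCh38), and promoters from RefSeq (GRCh38.p14), the first listed start per gene. The 35 genes and the other lists were chosen with earlier results of these data known, and the lists came from general knowledge. All 35 genes were accounted for, and those called, those with a log2 fold change of at least 1 in size and the centres of each step (C3, C4A, C4B, CFB, C5, CD46, CD55, CD59, CLU and VTN) were given in every library. Genes of the other pathway lists were named where they were called. The standard errors and p-values of the fits include the spread between libraries. Counts may include PCR copies, which are not independent molecules.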

Additional observations from a re-analysis of the deposited data

How the results depend on the processing

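The count of complement genes called, 1 by edgeR, was 2 with DESeq2, 8 with limma-voom and sample quality weights, 3 with GC offsets, 2 with the replicate block, 2 with the replicate block and GC offsets, 8 with both sgControl library 2 and sgRFX6 library 3 left out, and 0 to 2 when each library was left out in turn. The 4 fits with 0 left 3 to 6 of 20 or 21 complement genes at an unadjusted p under 0.05. Over all genes, 1548 to 1841 of the 13035 to 13071 genes tested in these fits had such a p. Over all genes the 480 calls became 895 with DESeq2, 3998 with limma-voom, 1543 with GC offsets, 648 with the replicate block, 814 with the block and GC offsets, 3238 with both libraries left out, and 212 to 718 with each library left out. The other complement genes, 1 called of 7 tested, gave 5 with limma-voom, 2 with both libraries left out and 0 to 1 with each left out. With the regional correction 0 of them were called and 2 had an unadjusted p under 0.05, beside 1520 of 12208 genes. The upstream genes, 2 called, gave 11 with limma-voom, 1 with the stricter filter (CPM above 1 in 3 libraries), 10 with both left out and 0 to 2 with each left out. The cause was not tested.

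Some estimates changed sign, among them that of C4B, which was -0.88 with all libraries. C2 gave a log2 fold change of 0.76 with limma-voom, 0.082 with the replicate block, 0.13 with the block and GC offsets, 0.12 with the regional correction and 0.83 with both libraries left out, and CFB gave 0.59 with limma-voom, 0.044 with the block and GC offsets, 0.10 with the regional correction and 0.75 with both left out. C4B gave 0.026 with limma-voom and 0.083 with both left out, MASP2 0.063 with limma-voom, C5 0.078 and C1QBP 0.068 with the regional correction, and VTN 0.059 with both left out. With each library left out in turn the estimates ran from -0.39 to 0.65 for C2, -0.44 to 0.51 for CFB, -0.62 to 0.10 for C5, -0.16 to 0.54 for C5AR1, -0.21 to 0.092 for C1QBP, -0.44 to 0.082 for MASP2 and -0.34 to 0.0101 for VTN. C4BPA was called in 13 of 17 alternatives and C8G in 7 of 17, both positive in all 17. These 17 reuse the same libraries and include the fit with both libraries left out, which was chosen after seeing the data. In the 6 fits that left out 1 library, C4BPA was called in 2 and C8G in 1.

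The deviations of same-numbered libraries from their group means correlated at -0.41, 0.17 and -0.09. These deviations also carried the GC trends of the libraries, so they cannot tell whether same-numbered libraries were handled together. No library correlated best with its own number. The best partners were sgRFX6 library 3 for sgControl library 1 (0.57), sgRFX6 library 1 for sgControl library 2 (0.44) and sgRFX6 library 2 for sgControl library 3 (0.28). The block added C8G to the called complement genes.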

Other observations

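SUSD4, a membrane inhibitor of complement in the list of other pathway genes, was at 3, 2 and 5 counts in sgControl libraries 1 to 3 and at 0 in each sgRFX6 library. It was too low to test and was picked out after its values were seen. LYZ, the lysozyme gene of the macrophage list, counted 5, 18 and 9 in the sgControl libraries against 29, 36 and 40 in the sgRFX6 libraries, with an edgeR adjusted p of 0.0526, and was also picked out after its values were seen.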
